A study of Mus musculus with 11 samples.

Results

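Glycolysis, hexose transport and the routes that branch from them were followed through 37 genes in microglia of the mouse, the resident macrophages of brain tissue. The genes were chosen by name: 4 hexose transporters, 3 hexokinases, 7 genes of upper and 5 of lower glycolysis, 4 lactate and pyruvate enzymes, 4 enzymes of the pentose phosphate pathway, 9 of the citrate cycle and Acly, which splits citrate in the cytosol. They are 37 of the 16894 genes measured. All 37 passed the filter on low counts in each of the 3 comparisons, so none is missing from the counts given here.

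RNA was sequenced in 3 libraries of primary microglia kept in cell culture, in 4 of microglia resident in the brain and in 4 of transplanted microglia, which were collected 3 months after transplantation. Resident and transplanted cells were isolated by fluorescence-activated cell sorting. Every library has the genotype Cx3cr1-GFP, a reporter that marks microglia and related macrophages. A treatment is attached to every library in the labels: chow with PLX3397, a blocker of the receptor Csf1r that microglia need to survive, at 600 mg/kg, given in 3 depletion cycles before transplantation. The labels do not say whether the mice behind the resident and cultured libraries were treated, where the transplanted cells came from, or how old the animals were and of which sex. Separate animals or cultures are not stated for the replicates either, so a p-value measures only the spread between these libraries, which may be technical. The study set transplanted cells against resident cells to ask whether they take on the program of native microglia, with resident and cultured cells as controls.

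Glycolysis splits glucose to pyruvate in the cytosol. Lactate dehydrogenase turns pyruvate to lactate, or pyruvate dehydrogenase passes it to the citrate cycle of the mitochondrion, while the pentose phosphate pathway draws sugar off to make NADPH and ribose. Macrophages and microglia are known to shift between these routes when activated, and the fructose transporter encoded by Slc2a5 (GLUT5) is a known microglial marker in the brain.

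The libraries held 26705034 to 28219696 counts in cultured cells, 19055655 to 19965631 in resident cells and 18692721 to 19761208 in transplanted cells. Levels are given as CPM, counts scaled by library size with edgeR's TMM factors, or as TPM, which is also scaled by gene length. The 7 microglia markers reported (Tmem119, P2ry12, Sall1, Cx3cr1, Csf1r, Fcrls and Siglech) summed to 37270 to 41050 CPM among resident and 31290 to 38360 CPM among transplanted libraries. In cultured libraries they summed to 2392 to 4544 CPM and all 7 were called lower than in resident cells, with mean levels of 0.740 CPM for Siglech and 11.8 CPM for Tmem119, so the cultured libraries carry the microglial label with most of its defining RNA low. Markers of border-associated macrophages summed to 1787 to 2510 CPM in cultured libraries, 41.6 to 83.8 CPM in resident libraries and 14.6 to 24.8 CPM in transplanted ones. The sum hides opposite changes: of these 5 markers, 2 were called higher and 2 lower in cultured than in resident cells (2 and 3 by TPM). Cell cycle genes summed to 511 to 556, 63.0 to 82.8 and 75.1 to 159 CPM in the same order, and monocyte markers to 163 to 213, 6.88 to 11.3 and 2.52 to 3.24 CPM. Of 4 monocyte markers tested, 3 were called higher and 1 lower in cultured than in resident cells. The astrocyte markers, 209 to 264 CPM in resident and 141 to 269 CPM in transplanted cells, were nearly all Slc1a3, with Gfap, Aqp4 and Gja1 under 1 CPM on average in every group. The endothelial markers, 36.8 to 55.1 and 10.5 to 14.8 CPM, were mostly Pecam1, with Cldn5 near 0, and the 6 neuron markers together stayed at or under 6.86 CPM in every library. Immediate early genes summed to 4909 to 5487 CPM in cultured and 735 to 1033 CPM in transplanted libraries. Resident replicate 1 stood apart in them, at 12720 CPM against 580 to 759.6 CPM in the other resident libraries. The part of these differences in the results was not tested, and in bulk RNA a change in the share of some cells and a change in RNA per cell cannot be told apart.

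Summed together, these genes took a larger part of the measured RNA in cultured cells than in cells sorted from the brain. RNA per cell was not measured. The summed TPM of the 37 genes was 25120 to 29000 in the cultured libraries, 8352 to 8731 in the resident and 7196 to 7649 in the transplanted ones. Against resident cells, 29 genes were higher in cultured cells, 5 were lower (Slc2a3, Slc2a5, Hk3, Pfkfb3 and Ldhb) and 3 did not pass the test (Hk2, Idh2 and Ogdh). Of all 12406 genes tested, 37.9% were called higher, 37.2% lower and 75.1% in either direction, so a call alone was common. The median log2 fold change was 1.67 for the 37 genes and -0.02 for all genes. In 28 of the 37 every cultured library lay above every resident library and in 5 below, against 36.5% and 39.3% of all genes.

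Calls rest on edgeR's quasi-likelihood test of the counts, with p-values adjusted by Benjamini and Hochberg over every gene of the comparison and a threshold of 0.05. Its TMM scaling sets the typical gene near no change, whereas on log2(TPM + 1) the median over all genes between cultured and resident cells was -0.95. The share of all calls that were higher was 50.5% by TMM and 20.3% by TPM. By TPM, 21 of the 37 genes were higher and 10 lower, with a median of 0.56. Of all 11445 genes tested by TPM, 1993 were called higher and 7830 lower, so lower calls were common on that scale. Upper and lower glycolysis kept 11 higher genes and 1 lower gene on both scales, while the citrate cycle had 7 higher and 0 lower by TMM but 2 higher and 4 lower by TPM. The 10 most abundant genes took 25.1% to 26.5% of counts in cultured libraries and 11.9% to 13.2% in sorted ones. Short genes also had higher fold changes in cultured cells, with medians of 1.39 for the shortest 10% of genes and -0.46 for the longest 10%. None of the 37 genes lay in either class, but their median length stood at percentile 38.0. With the length trend removed, 31 were higher and 4 lower, with a median of 2.02. Single genes moved either way, such as Gapdh from 3.64 to 3.10 and Hk1 from 0.99 to 1.37.

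**Figure D1:**
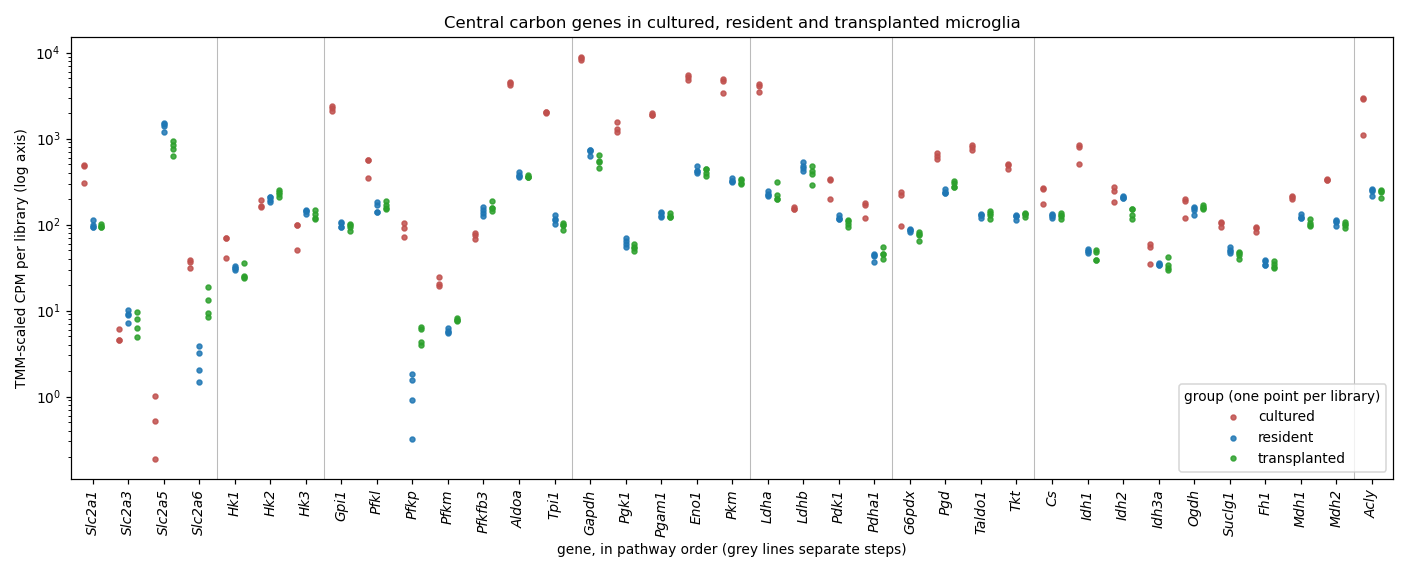
Each point is 1 library's TMM-scaled CPM (log axis) for 1 of the 37 genes, in pathway order, with cultured, resident and transplanted libraries in separate colors. Cultured points lie above the others from Gpi1 to Ldha, except at Pfkfb3, and below them at Slc2a5, Hk3 and Ldhb.

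The hexose transporters separated cultured from resident cells in both directions. Slc2a5, the fructose transporter (chromosome 4, 150119344 to 150144168), had 0.520, 0.190 and 1.02 CPM in the 3 cultured libraries, from 11, 4 and 21 counts. In the 4 resident libraries it had 1200.4, 1494, 1509 and 1386 CPM. The level in culture was 2325-fold lower, a log2 fold change of -11.18 ± 0.43 (standard error, as for every fold change given here; adjusted p = 4.70e-08). Slc2a1 (GLUT1), the widely expressed glucose transporter, showed the opposite order, with 489.8, 304 and 484 CPM in cultured and 112, 97.8, 94.7 and 93.6 CPM in resident libraries. Its log2 fold change was 2.13 ± 0.17, adjusted p = 4.30e-06.

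Slc2a6 (GLUT6), a transporter known from lysosomal membranes of macrophages, had 38.9, 31.6 and 36.9 CPM in cultured and 2.04, 1.49, 3.23 and 3.84 CPM in resident libraries, which did not overlap. This was a log2 fold change of 3.79 ± 0.29, adjusted p = 2.58e-06. Slc2a3 (GLUT3), best known from neurons, was low in every library, at 4.58, 4.60 and 6.04 CPM in cultured and 10.1, 7.24, 9.22 and 8.78 CPM in resident ones. Its log2 fold change of -0.76 ± 0.20, adjusted p = 0.00694 became -0.36 (adjusted p = 0.109) once the trend with gene length was removed.

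Per length, the main transporter RNA differed between cultured and sorted cells. Slc2a5 made up 93.9% ± 1.10 (SD, n = 4) of the summed TPM of the 4 transporters in resident cells, 88.9% ± 1.74 (SD, n = 4) in transplanted cells and 0.138% ± 0.0869 (SD, n = 3) in cultured cells. Slc2a1 made up 5.64% ± 1.05, 9.21% ± 1.07 and 89.6% ± 1.54 in the same order. The summed TPM of the 4 genes was 142 to 242 in cultured and 1424 to 1741 in resident libraries.

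Hexokinases, which phosphorylate sugar as it enters the cell, showed smaller differences of either sign. Hk1 had 70.2, 41.2 and 69.0 CPM in cultured and 32.9, 30.9, 29.5 and 30.9 CPM in resident libraries (log2 fold change 0.99 ± 0.18, adjusted p = 0.000737). Hk3, an isozyme of blood and immune cells, had 98.7, 50.7 and 99.6 CPM in cultured and 145, 147, 142 and 133 CPM in resident libraries (-0.74 ± 0.21, adjusted p = 0.0114). Hk2 had 195, 166 and 158 CPM against 211, 192, 209 and 183 CPM, and these groups overlapped (-0.16 ± 0.11, adjusted p = 0.216). The scales disagreed for 2 of the 3 genes: Hk1 stood at -0.11 by TPM (adjusted p = 0.603), and Hk2 stood at -1.20 by TPM and at 0.29 with the length trend removed. Per length, summed hexokinase TPM was 60.3 to 93.5 in cultured and 185 to 215 in resident libraries. Hk1 took 20.4% ± 1.99 (SD, n = 3) of it in cultured cells, 8.70% ± 0.432 (SD, n = 4) in resident cells and 7.54% ± 0.951 (SD, n = 4) in transplanted cells.

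From glucose phosphate to triose phosphate, the enzymes of upper glycolysis were higher in cultured cells in 6 of 7 genes and lower in 1, by both scales. Pfkp, the platelet-type phosphofructokinase, had 91.9, 71.0 and 106 CPM in cultured libraries but 0.320, 1.54, 0.900 and 1.83 CPM in resident libraries (6.32 ± 0.38, adjusted p = 6.81e-07). Gpi1, which turns glucose phosphate to fructose phosphate, had 2368, 2074 and 2274 CPM in cultured and 105, 93.0, 93.0 and 108 CPM in resident libraries (4.53 ± 0.12, adjusted p = 7.29e-09). Triose phosphate isomerase, Tpi1, had 2035, 2026 and 1967 CPM against 113, 116, 102 and 131 CPM (4.16 ± 0.12, adjusted p = 1.04e-08). The groups stayed apart by more than 10-fold for these 3 genes. Aldolase, Aldoa, was higher by 3.59 ± 0.10 on the log2 scale. Pfkfb3, which makes the allosteric activator of phosphofructokinase, was the lower gene, at 67.2 to 80.7 CPM in cultured and 127 to 161 CPM in resident libraries (-0.91 ± 0.12, adjusted p = 8.74e-05).

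Phosphofructokinase, the committing step of glycolysis, differed in its isozymes as well as its level. The liver-type Pfkl had 563, 345 and 561 CPM in cultured and 183, 141, 141 and 170.1 CPM in resident libraries (1.66 ± 0.19, adjusted p = 3.72e-05). The muscle-type Pfkm had 24.9, 19.1 and 20.1 CPM against 6.29, 5.79, 5.61 and 5.49 CPM (1.92 ± 0.15, adjusted p = 3.98e-06). Both were higher in every cultured library than in any resident one. Per length, Pfkl made up 79.0% ± 1.97 (SD, n = 3) of the summed TPM of the 3 isozymes in cultured cells and 94.7% ± 0.661 (SD, n = 4) in resident cells, while Pfkp made up 16.2% ± 1.44 and 0.719% ± 0.430.

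All 5 genes of lower glycolysis were higher in cultured cells, within a narrow range of log2 fold changes from 3.63 to 4.47. Phosphoglycerate kinase, Pgk1, had 1279, 1557 and 1185 CPM in cultured and 59.1, 64.7, 54.98 and 69.9 CPM in resident libraries (4.47 ± 0.15, adjusted p = 1.95e-08). Phosphoglycerate mutase, Pgam1, had 1874, 1982 and 1876 CPM against 135, 124, 122 and 139.7 CPM (3.91 ± 0.11, adjusted p = 9.67e-09). Pyruvate kinase, Pkm, which yields pyruvate, had 4881, 3368 and 4731 CPM against 323, 321, 313 and 347 CPM (3.77 ± 0.15, adjusted p = 4.93e-08). Cultured and resident libraries did not overlap for any gene of this step. Gapdh was higher by 3.64 ± 0.10 and enolase, Eno1, by 3.63 ± 0.11. Per length, the summed TPM of the step was 14050 to 15550 in cultured and 2302 to 2563 in resident libraries, a ratio of means of 6.13. The related copies Eno1b, Aldoart1, Aldoart2 and Ldhal6b averaged at most 0.209 CPM in any group. How reads were divided between Gapdh, Ldha, Pgam1, Tpi1 or Pgk1 and their pseudogenes is not known from the sources used here, and their levels are uncertain to that extent.

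Beyond pyruvate, cultured and resident cells had opposite main subunits of lactate dehydrogenase. Ldha, the subunit typical of glycolytic tissue (chromosome 7, 46842274 to 46855627), had 4271, 3486 and 4108 CPM in cultured and 223, 227, 213 and 242 CPM in resident libraries (4.16 ± 0.12, adjusted p = 1.04e-08). Ldhb, the subunit typical of heart (chromosome 6, 142490249 to 142507957), had 161, 149.8 and 151 CPM in cultured against 419, 478, 459 and 529 CPM in resident libraries (-1.58 ± 0.11, adjusted p = 2.08e-06). Neither subunit overlapped between the groups. Per length, Ldha made up 95.2% ± 0.387 (SD, n = 3) of the pair in cultured cells and 26.9% ± 1.31 (SD, n = 4) in resident cells. Pdha1, a catalytic subunit of pyruvate dehydrogenase, was higher by 1.91 ± 0.15 on the log2 scale. Pdk1, a kinase that inhibits that enzyme, was higher by 1.31 ± 0.18, although by TPM it stood at 0.35 (adjusted p = 0.159).

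The promoters of 7 genes are shown because Hk1, Pfkp, Pgk1, Ldha and Taldo1 were higher together in culture, whereas Slc2a5 and Ldhb were lower. The first 5 have the largest change of their step, and Slc2a5 and Ldhb were picked after their values were seen. Each window runs from 250 bases before to 50 bases after a RefSeq transcription start on GRCm38.p6, on the gene's strand from 5′ to 3′. The places are chr10:62379859-62380158 (minus strand, the first of 2 windows) for Hk1, chr13:6648722-6649021 (minus) for Pfkp, chrX:106186850-106187149 (plus) for Pgk1, chr7:46845554-46845853 (plus, the first of 2 windows) for Ldha, chr7:141391910-141392209 (plus) for Taldo1, chr4:150119094-150119393 (plus) for Slc2a5 and chr6:142507908-142508207 (minus) for Ldhb. Capitals mark matches, on either strand, to the motifs ACGTG, the core of the hypoxia response element, or GGGCGG, a GC box.
Hk1: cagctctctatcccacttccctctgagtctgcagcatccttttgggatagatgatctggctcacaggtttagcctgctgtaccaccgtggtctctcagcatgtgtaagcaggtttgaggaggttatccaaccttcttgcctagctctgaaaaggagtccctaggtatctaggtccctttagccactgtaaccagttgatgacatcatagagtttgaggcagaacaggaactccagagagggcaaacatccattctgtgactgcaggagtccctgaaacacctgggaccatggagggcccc
Pfkp: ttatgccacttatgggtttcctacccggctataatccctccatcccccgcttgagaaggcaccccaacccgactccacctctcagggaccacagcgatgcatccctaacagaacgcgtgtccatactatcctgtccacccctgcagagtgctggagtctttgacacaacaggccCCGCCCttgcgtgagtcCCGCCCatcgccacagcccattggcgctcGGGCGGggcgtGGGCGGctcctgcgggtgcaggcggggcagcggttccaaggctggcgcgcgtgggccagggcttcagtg
Pgk1: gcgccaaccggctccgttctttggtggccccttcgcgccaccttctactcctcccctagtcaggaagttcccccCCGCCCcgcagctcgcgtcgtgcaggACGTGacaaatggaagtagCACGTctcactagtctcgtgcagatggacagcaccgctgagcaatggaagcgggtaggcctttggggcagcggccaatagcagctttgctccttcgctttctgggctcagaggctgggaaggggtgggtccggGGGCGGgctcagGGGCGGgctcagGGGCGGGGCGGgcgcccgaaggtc
Ldha: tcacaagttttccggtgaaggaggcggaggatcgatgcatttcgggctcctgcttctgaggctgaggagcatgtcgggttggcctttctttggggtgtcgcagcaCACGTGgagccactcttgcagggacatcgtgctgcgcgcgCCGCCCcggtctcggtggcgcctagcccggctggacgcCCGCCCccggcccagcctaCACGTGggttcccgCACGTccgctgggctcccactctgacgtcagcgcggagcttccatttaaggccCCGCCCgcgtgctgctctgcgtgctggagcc
Taldo1: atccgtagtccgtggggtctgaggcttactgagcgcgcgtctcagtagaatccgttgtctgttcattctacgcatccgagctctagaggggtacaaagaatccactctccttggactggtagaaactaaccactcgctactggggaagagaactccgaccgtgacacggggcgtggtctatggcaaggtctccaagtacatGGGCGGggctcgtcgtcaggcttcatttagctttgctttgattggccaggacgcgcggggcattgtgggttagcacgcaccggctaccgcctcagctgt
Slc2a5: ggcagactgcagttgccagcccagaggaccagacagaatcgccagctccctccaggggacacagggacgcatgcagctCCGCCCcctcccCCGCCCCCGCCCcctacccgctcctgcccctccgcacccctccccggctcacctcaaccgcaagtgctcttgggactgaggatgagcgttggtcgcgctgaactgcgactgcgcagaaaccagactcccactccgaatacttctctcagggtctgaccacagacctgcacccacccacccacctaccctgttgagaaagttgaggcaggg
Ldhb: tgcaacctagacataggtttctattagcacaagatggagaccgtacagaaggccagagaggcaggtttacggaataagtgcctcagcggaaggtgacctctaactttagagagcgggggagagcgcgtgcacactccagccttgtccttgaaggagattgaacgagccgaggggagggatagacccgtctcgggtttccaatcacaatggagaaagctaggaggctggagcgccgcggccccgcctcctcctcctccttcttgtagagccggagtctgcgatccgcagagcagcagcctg

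An E-box (CACGTG), which holds the hypoxia core on both strands, and a TATA box (TATAAA) were searched as well, and their matches are in capitals too. Ldha held 5 matches to the hypoxia core, 4 of them within its 2 E-boxes, and 3 GC boxes. Pgk1 held 2 matches to the core and 5 GC boxes, Pfkp held 4 GC boxes, Slc2a5 held 3 and Taldo1 held 1. The windows shown of Hk1 and Ldhb held none of the 4 motifs. Windows were found for 35 of the 37 genes, all but Idh3a and Slc2a3. The hypoxia core occurred in 16 of the 35 (45.7%), against 29.2% of 10000 tested genes and 21.8% of all genes with a window. The GC box occurred in 28 (80.0%, against 67.0% of tested and 38.2% of all genes), the E-box in 4 (11.4%, 11.6% and 8.09%) and the TATA box in 1, Slc2a1 (2.86%, 9.05% and 15.7%). These matches describe the letters in these windows only.

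The pentose phosphate pathway was higher in cultured cells in all 4 genes by TMM and in 3 by TPM. Transaldolase, Taldo1, had 795, 845 and 738 CPM in cultured and 121, 131, 129 and 134 CPM in resident libraries (2.66 ± 0.10, adjusted p = 4.72e-08). Transketolase, Tkt, had 501, 494 and 445 CPM against 127, 114, 129 and 127 CPM (1.99 ± 0.10, adjusted p = 2.49e-07). Both belong to the arm that exchanges sugars reversibly. In the arm that makes NADPH, Pgd stood at 1.42 ± 0.10 and G6pdx, the first enzyme of the pathway, at 1.14 ± 0.26. G6pdx had 239, 97.5 and 218 CPM in the 3 cultured libraries and 81.6 to 89.8 CPM in resident ones, and its TPM fold change was -0.06 (adjusted p = 0.849).

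The 9 citrate cycle genes had a median log2 fold change of 0.92, with Idh1 far above the rest. Idh1, the cytosolic NADP-dependent isocitrate dehydrogenase, had 845, 509 and 808 CPM in cultured and 46.4, 52.3, 48.8 and 49.5 CPM in resident libraries (3.91 ± 0.18, adjusted p = 1.31e-07). Idh2, its mitochondrial counterpart, had 270, 182 and 249 CPM against 205, 215, 207 and 206 CPM, and the groups overlapped (0.20 ± 0.14, adjusted p = 0.211; by TPM -0.89, adjusted p = 0.000509). Idh3a, a subunit of the NAD-dependent enzyme, had 55.1, 34.95 and 59.8 CPM against 33.4, 34.8, 33.8 and 35.4 CPM (0.58 ± 0.17, adjusted p = 0.0123). Its call was lost without cultured replicate 1 (adjusted p = 0.0557) or cultured replicate 3 (adjusted p = 0.0672), and by TPM it was lower, at -0.54. Of these 3 genes, Idh1 took 66.0% ± 1.42 (SD, n = 3) of the summed TPM in cultured cells and 13.6% ± 0.335 (SD, n = 4) in resident cells, and Idh2 took 29.7% ± 1.59 and 77.6% ± 0.394.

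Malate dehydrogenase Mdh2 and fumarase, Fh1, were higher by 1.67 ± 0.10 and 1.34 ± 0.10 on the log2 scale, although by TPM Fh1 was not called (0.23, adjusted p = 0.0844). Citrate synthase (Cs), the succinyl-CoA ligase subunit Suclg1, the cytosolic malate dehydrogenase Mdh1 and Ogdh, of the oxoglutarate dehydrogenase complex, had fold changes of 0.92, 1.06, 0.79 and 0.22 by TMM but of -0.17, -0.05, -0.31 and -0.81 by TPM. No direction holds on both scales for these 4 genes. Acly, which supplies acetyl-CoA for lipid synthesis, had 2888, 1087 and 2937 CPM in cultured and 261, 215, 247 and 252 CPM in resident libraries (3.28 ± 0.31, adjusted p = 1.09e-05).

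Cultured replicate 2 was the lowest of the 3 cultured libraries for 25 of the 37 genes, among them Acly, G6pdx and Idh1. It also had the lowest sum of microglia markers, 2392 CPM against 4544 and 4324 CPM. Without it, 31 genes were higher and 5 lower against resident cells, and Idh2 (adjusted p = 0.00302) and Ogdh (adjusted p = 0.00547) were called higher.

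**Figure D2:**
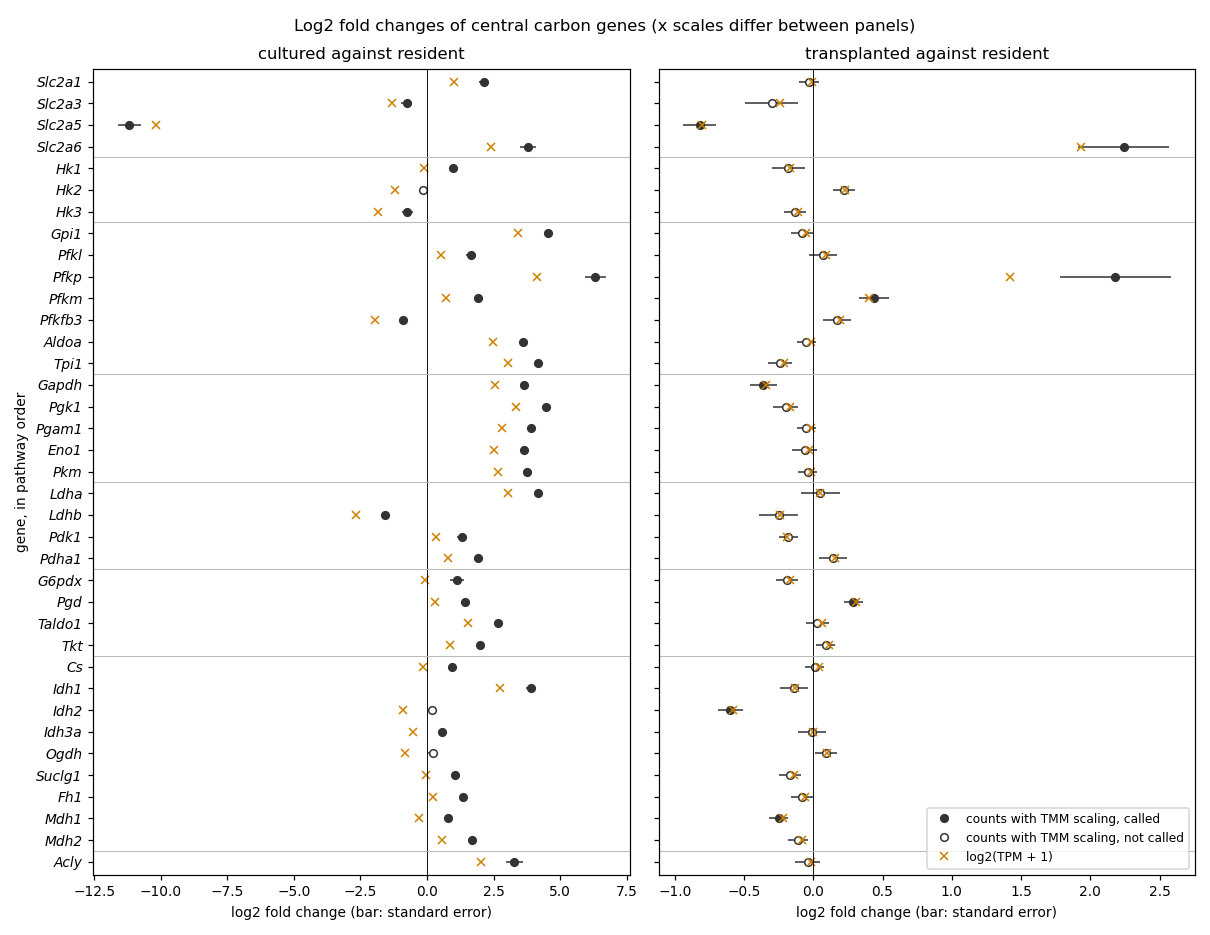
Log2 fold changes of the 37 genes, in pathway order, for cultured against resident cells (left) and transplanted against resident cells (right), on different x scales. Points are counts with TMM scaling (filled where called, bar 1 standard error) and crosses are log2(TPM + 1); on the left most crosses lie below their points, where the all-gene median by TPM is -0.95, and on the right they nearly coincide.

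Against cultured cells, 30 of the 37 genes were lower in transplanted cells, 5 were higher (Slc2a5, Hk2, Hk3, Pfkfb3 and Ldhb) and Slc2a3 and Ogdh did not pass the test. Of the 12284 genes tested, 35.5% were called lower, 36.9% higher and 72.4% in either direction. Every transplanted library lay below every cultured one in 29 of the 37 and above in 5, against 34.7% and 38.6% of all genes. The median was -1.54, against 0.05 for all genes. By TPM 18 genes were lower and 8 higher, with a median of -0.47 where all genes had 0.98. Of all 11394 genes tested by TPM, 1843 were called lower and 7755 higher. The transporter Slc2a5 stood 1336-fold above its cultured level (10.38 ± 0.40, adjusted p = 2.31e-08). Pgk1, Gpi1 and Tpi1 stood at -4.65 ± 0.15, -4.58 ± 0.13 and -4.38 ± 0.13 on the log2 scale, Ldha at -4.10 ± 0.19 and Ldhb at 1.35 ± 0.17. This comparison shares its cultured libraries with the one between cultured and resident cells. Calls were lost without 1 or more libraries for Hk2, Hk3 and Idh3a, with adjusted p up to 0.0633, 0.0762 and 0.112. The lower call of Idh3a was lost in 4 of the 7 fits that leave out a library, without cultured replicate 1 or 3 or transplanted replicate 1 or 4, and by TPM it stood at 0.54.

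Between transplanted and resident cells, 8 genes differed and 29 did not pass the test. Slc2a6, Pfkp, Pfkm and Pgd were higher, and Slc2a5, Idh2, Gapdh and Mdh1 were lower. Of all 11929 genes tested, 7.17% were called higher, 5.86% lower and 13.0% in either direction. Every transplanted library lay above every resident one in 4 of the 37 genes and below in 4, against 10.2% and 9.49% of all genes. The median log2 fold change was -0.05, beside 0.02 for all genes. By TPM the same genes were called except Gapdh (adjusted p = 0.056), and of all 11271 genes tested 780 were called higher and 627 lower. The 29 genes without a call had log2 fold changes between -0.30 ± 0.19 (Slc2a3) and 0.22 ± 0.08 (Hk2), and they include 5 of the 7 genes of upper glycolysis and 4 of the 5 of lower glycolysis.

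Among the transporters, Slc2a5 was lower in every transplanted library, at 836, 926, 635 and 762 CPM against 1200.4 to 1509 CPM in resident ones. The fold change was -0.82 ± 0.12, adjusted p = 0.0014, or 1.76-fold. Slc2a6 was higher in each, at 8.42, 9.42, 13.1 and 18.97 CPM against 1.49 to 3.84 CPM (2.24 ± 0.33, adjusted p = 0.00147). By CPM these levels lay below the cultured ones (-1.54 ± 0.26, adjusted p = 0.000439), but by TPM transplanted and cultured libraries overlapped (-0.47, adjusted p = 0.114). Slc2a1 did not pass the test, at 97.3, 102, 94.3 and 94.8 CPM (-0.03 ± 0.07, adjusted p = 0.804), nor did Slc2a3, at 6.23, 4.95, 9.50 and 7.89 CPM (-0.30 ± 0.19, adjusted p = 0.343).

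Of the phosphofructokinases, Pfkp had 3.96, 6.44, 6.15 and 4.26 CPM in transplanted libraries, above the 0.320 to 1.83 CPM of resident ones and far below the 71.0 to 106 CPM of cultured ones (2.18 ± 0.40, adjusted p = 0.00544). These levels rest on 87, 134, 132 and 88 counts in transplanted and 7, 33, 19 and 40 counts in resident libraries. Pfkm had 7.74, 8.21, 7.64 and 7.79 CPM against 5.49 to 6.29 CPM (0.44 ± 0.11, adjusted p = 0.023). The groups stayed apart for both genes, while Pfkl, at 167, 186, 158 and 152 CPM, overlapped the resident libraries (0.07 ± 0.10, adjusted p = 0.723).

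The mitochondrial isocitrate dehydrogenase Idh2 had 152, 152, 116 and 129 CPM in transplanted and 205, 215, 207 and 206 CPM in resident libraries (-0.60 ± 0.09, adjusted p = 0.00209). Every transplanted library was below every resident one. Mdh1 had 103, 115, 99.9 and 96.4 CPM against 119, 119.7, 121 and 134 CPM (-0.25 ± 0.07, adjusted p = 0.049). Gapdh had 456, 533, 638 and 554 CPM against 709, 728, 635 and 732 CPM (-0.36 ± 0.10, adjusted p = 0.0403), with transplanted replicate 3 inside the resident range. Pgd, which makes NADPH, had 275, 272, 321 and 302 CPM against 234, 233, 257 and 238 CPM (0.29 ± 0.07, adjusted p = 0.0279). Idh1 and Idh3a, at 51.2, 48.3, 39.2 and 39.0 and 30.9, 33.5, 41.9 and 29.8 CPM, overlapped the resident libraries and were not called.

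The calls of Slc2a5, Slc2a6, Pfkp and Idh2 held when any 1 library was left out, with log2 fold changes between -0.92 and -0.74 for Slc2a5, between 1.96 and 2.46 for Slc2a6, between 1.85 and 2.49 for Pfkp and between -0.67 and -0.54 for Idh2. The other 4 calls did not. Mdh1 lost its call without any library other than transplanted replicate 2, with adjusted p up to 0.117. Gapdh lost it without any but resident replicate 3 and transplanted replicate 3, with adjusted p up to 0.0972. Pgd lost it without any resident library and without transplanted replicate 3 or 4, with adjusted p up to 0.094, and Pfkm without resident replicate 2, 3 or 4, with adjusted p up to 0.079. Other lists held calls between the same cells. Microglia markers were called lower in 2 of 7 genes, Siglech (-0.40 ± 0.09, adjusted p = 0.0148) and Sall1 (-0.40 ± 0.10, adjusted p = 0.0271), and border-associated macrophage markers in 5 of 5. Of 2 endothelial markers tested, the adhesion gene Pecam1 was lower (-2.16 ± 0.16) and Flt1 higher (1.85 ± 0.44, adjusted p = 0.02). The monocyte marker Ccr2 was lower (-2.23 ± 0.25, adjusted p = 0.000301), the neutrophil marker Csf3r higher (0.42 ± 0.08, adjusted p = 0.00617), and of 10 cell cycle genes Top2a (1.58 ± 0.45, adjusted p = 0.0426) and Ccna2 (1.49 ± 0.42, adjusted p = 0.041) were higher. By TPM no cell cycle gene was called. The cell cycle sum was 159 CPM in transplanted replicate 4 against 75.1 to 85.3 CPM in the other transplanted libraries. The part of these in the 8 calls was not tested.

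**Figure D3:**
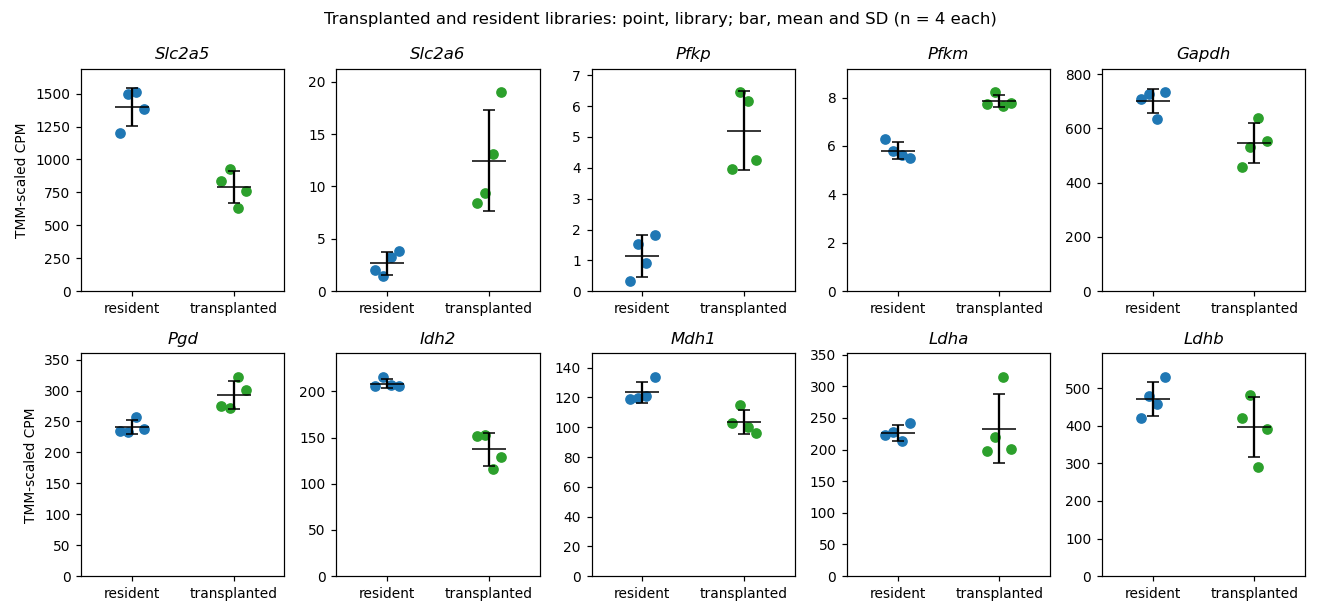
TMM-scaled CPM of 10 genes in the 4 resident and 4 transplanted libraries, each point 1 library, with the mean and SD of each group. Slc2a5 and Idh2 lie lower and Slc2a6, Pfkp and Pfkm higher in all 4 transplanted libraries, and transplanted replicate 3 stands apart from the other transplanted libraries for Ldha (314 CPM) and Ldhb (289.8 CPM).

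No hexokinase passed the test between transplanted and resident cells. Hk2 had 224, 237, 249 and 209.9 CPM in transplanted libraries (0.22 ± 0.08, adjusted p = 0.1), Hk3 had 117, 147, 120.1 and 134 CPM (-0.13 ± 0.08, adjusted p = 0.352) and Hk1 had 24.4, 35.4, 25.3 and 23.9 CPM (-0.18 ± 0.12, adjusted p = 0.372). The Hk1 result turned on 1 library: without transplanted replicate 2 it was called lower, at -0.35 (adjusted p = 0.0158).

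Lactate dehydrogenase varied most in 1 transplanted library. Ldha had 198, 219, 314 and 201 CPM (0.05 ± 0.14, adjusted p = 0.862) and Ldhb had 422, 482, 289.8 and 390.4 CPM (-0.25 ± 0.14, adjusted p = 0.289). Transplanted replicate 3 was the highest for Ldha and the lowest for Ldhb. The Ldha share of the summed TPM of the pair was 26.4%, 25.8%, 45.2% and 28.1% in transplanted replicates 1 to 4, against 25.9% to 28.8% in resident libraries. Replicate 3 also had the lowest Slc2a5 level and the lowest microglia marker sum of the transplanted libraries, 31290 CPM, and the highest sum of immediate early genes, 1033 CPM. Its border-associated macrophage markers summed to 14.6 CPM and its monocyte markers to 2.52 CPM, and the part of these differences in its Ldha share was not tested.

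Isozymes were compared through 15 shares in 5 families, each share being a gene's part of its family's summed TPM in a library. A family holds only its genes among the 37, so related genes outside them are not in the sums. Left out were Slc2a8, Idh3b (134.7 TPM in resident and 131.1 in cultured cells) and Idh3g (343.4 and 258.3 TPM). Idh2, which is in the sums, had 292 TPM in resident cells. Shares within a family are not independent of each other. Between cultured and resident cells 13 of the 15 did not overlap, between transplanted and cultured cells 12, and between transplanted and resident cells 11. The exact two-sided permutation test cannot go below p = 0.0571 for 3 against 4 libraries or 0.0286 for 4 against 4, and over the 45 shares compared no adjusted p fell below 0.0714. In transplanted cells Slc2a5 took 88.9% ± 1.74 and Slc2a1 9.21% ± 1.07 of the transporter sum (SD, n = 4), against 93.9% ± 1.10 and 5.64% ± 1.05 in resident cells. Idh2 took 70.7% ± 2.80 against 77.6% ± 0.394, Idh1 16.9% ± 0.756 against 13.6% ± 0.335 and Idh3a 12.3% ± 2.99 against 8.86% ± 0.220. Pfkp took 3.12% ± 0.442 of the phosphofructokinase sum against 0.719% ± 0.430. Each of these 6 shares had an exact permutation p of 0.0286 and an adjusted p of 0.0714, the smallest reached. The Ldha share, 31.4% ± 9.25 against 26.9% ± 1.31, overlapped (exact permutation p = 0.629).

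**Figure D4:**
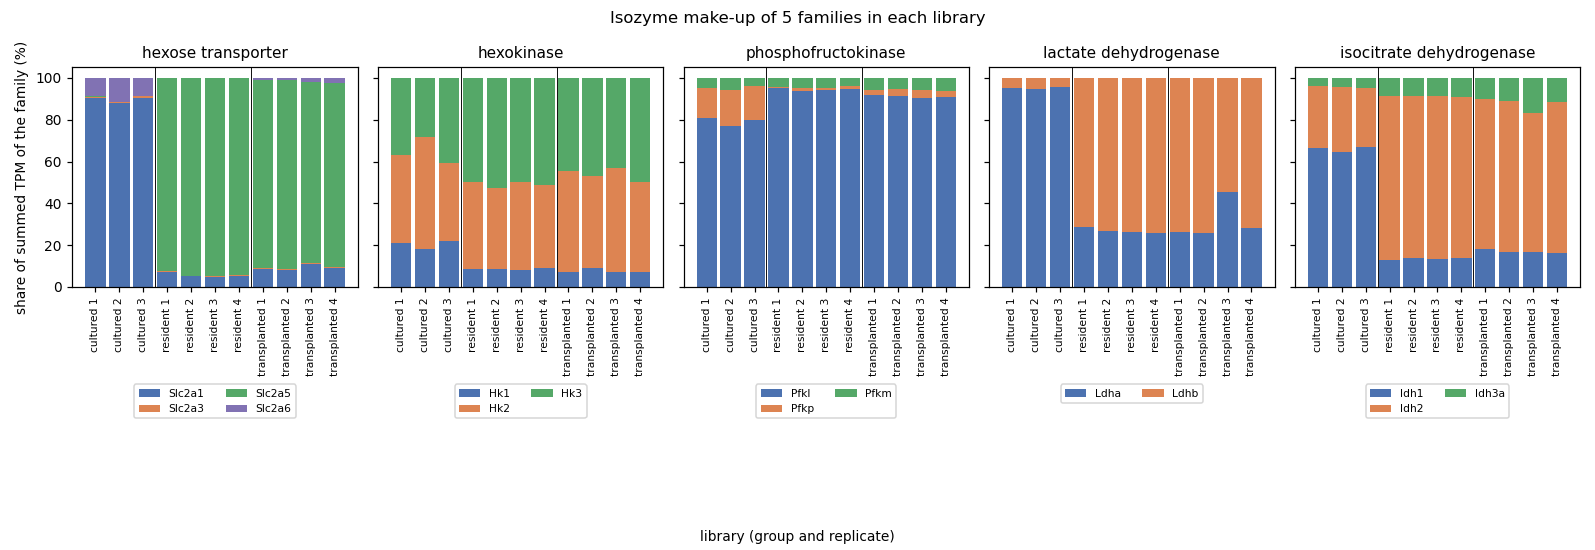
Stacked bars give each isozyme's share (%) of its family's summed TPM in each of the 11 libraries. The families are hexose transporters, hexokinases, phosphofructokinases, lactate dehydrogenases and isocitrate dehydrogenases. Each holds only its genes among the 37, without Slc2a8, Idh3b or Idh3g. Slc2a1, Ldha and Idh1 fill most of the cultured bars and Slc2a5, Ldhb and Idh2 most of the sorted ones, and transplanted replicate 3 has an Ldha share of 45.2%.

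Summed by step on the TPM scale, transplanted cells had 0.606 times the resident level for hexose transporters, 0.881 times for lower glycolysis, 0.871 times for the citrate cycle, 0.984 times for upper glycolysis, 0.914 times for lactate and pyruvate enzymes and 0.986 times for Acly. Hexokinases stood at 1.02 times the resident level and the pentose phosphate pathway above it, at 731 to 812 TPM against 676 to 711 TPM. Transplanted and resident sums overlapped in upper and lower glycolysis, lactate and pyruvate enzymes, hexokinases and Acly. Single genes made most of the gap in 3 steps. Mean TPM in transplanted against resident cells was 869.2 against 1513 for Slc2a5, 1034 against 1299 for Gapdh and 195.5 against 292 for Idh2. For cultured against resident cells the ratios were 5.77 in upper glycolysis, 1.93 in the pentose phosphate pathway, 2.31 for lactate and pyruvate enzymes and 4.59 for Acly. They were 0.401 in hexokinases, 0.128 in hexose transporters and 1.20 in the citrate cycle, where the libraries overlapped. The mean citrate cycle sums were 1263 TPM in cultured and 1054 TPM in resident cells. The cytosolic Idh1 alone differed by more, at 360.1 and 50.99 TPM, so the ratio above 1 rests on Idh1.

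Other genes of these routes were counted from lists of pathway members. For every list below, the share over all genes between cultured and resident cells was 37.9% higher and 37.2% lower. By TPM it was 1993 higher and 7830 lower of 11445 genes. Between transplanted and resident cells 7.17% of all genes were called higher and 5.86% lower. A list near these shares shows nothing particular to its genes. Of 11 further citrate cycle enzymes, 10 were higher and 0 lower in cultured than in resident cells (3 and 4 by TPM), led by the succinate dehydrogenase subunits Sdhd at 2.10 ± 0.11, Sdhc at 1.71 ± 0.10 and Sdhb at 1.35 ± 0.10. None was called between transplanted and resident cells by edgeR or by TPM. Of 7 genes of lactate and pyruvate transport, 5 were higher and 2 lower in culture (3 and 2 by TPM). The lactate exporter Slc16a3 (MCT4) stood at 2.82 ± 0.20, its chaperone Bsg at 1.46 ± 0.12 and the mitochondrial lactate dehydrogenase Ldhd at -3.01 ± 0.85. Ldhd was near the floor, with 7 counts over the cultured and 84 over the resident libraries, and was not tested by TPM. None of the 7 genes passed the test between transplanted and resident cells either.

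Of 10 genes of the pyruvate dehydrogenase complex and its regulators, 6 were higher and 2 lower in culture (1 and 6 by TPM). The kinase gene Pdk4 had 0 counts over the resident libraries and 102 over the cultured ones, at least 47.3-fold higher when the resident libraries together are set at a floor of 3 counts. The phosphatase gene Pdp2 stood at -2.34 ± 0.22 and the kinase gene Pdk3 at 1.77 ± 0.18.

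Glycogen genes include enzymes of its synthesis and breakdown. In cultured cells 7 of 10 were higher and 1 lower (6 and 3 by TPM). Pygl, the liver-type phosphorylase that releases glucose from glycogen, stood at 6.42 ± 0.15, glycogenin (Gyg) at 4.31 ± 0.11 and glycogen synthase (Gys1) at 4.21 ± 0.14. In transplanted against resident cells 6 of the 10 were not called, while Pygl (1.34 ± 0.13, adjusted p = 1e-04) and Gys1 (0.70 ± 0.10, adjusted p = 0.00125) were higher. Mean Pygl levels were 700.4 ± 74.1 CPM in cultured, 8.36 ± 0.962 in resident and 21.1 ± 2.91 in transplanted cells (SD, n = 3, 4 and 4). The muscle-type Pygm (-2.31 ± 0.30, adjusted p = 0.000647) and brain-type Pygb (-0.27 ± 0.06, adjusted p = 0.0157) were lower there.

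Of the 17 genes of citrate, malate and itaconate branches, 15 were higher and 2 lower in culture (8 and 4 by TPM). Acod1, which makes itaconate in activated macrophages, stood at 6.03 ± 0.54, with 525 counts over the cultured and 11 over the resident libraries. The cytosolic and mitochondrial glycerol phosphate dehydrogenases lay on opposite sides, Gpd1 at -5.17 ± 0.25 and Gpd2 at 3.15 ± 0.14. In transplanted cells Gpd1 had 3.89 ± 1.28 CPM against 30.0 ± 4.42 in resident cells (SD, n = 4 each; -2.94 ± 0.21, adjusted p = 1.89e-05), and Gpd2 stood at 0.83 ± 0.15, adjusted p = 0.00566.

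Among 13 regulators of hypoxia and glycolysis, 6 were higher and 5 lower in culture (5 and 8 by TPM), beside 37.9% and 37.2% of all genes. Epas1 (HIF-2 alpha) had 101 ± 6.70 CPM (SD, n = 3) in cultured, 0.184 ± 0.158 in resident and 0.903 ± 0.268 in transplanted cells (SD, n = 4 each). The prolyl hydroxylases Egln3 and Egln1, which mark HIF proteins for breakdown, stood at 8.08 ± 0.25 and 2.37 ± 0.27 in culture. Hif1a stood at 1.89 ± 0.19. The 5 regulators called lower in culture were Mlxipl, Vhl, Mlxip, Trp53 and Hif1an. Their log2 fold changes ran from -1.98 ± 0.16 (Mlxipl) to -0.5 ± 0.11 (Hif1an). Of 13 hypoxia targets tested outside glycolysis, 10 were higher and 3 lower (10 and 3 by TPM). The growth factor Vegfa stood at 8.24 ± 0.72 and Ndrg1 at 7.52 ± 0.32. These 2 genes had only 11 and 33 counts over the resident libraries, and Vegfa ranged from 19.35 to 73.23 CPM in cultured ones. Adm, which encodes adrenomedullin, had 2 counts over resident and 1583 over cultured libraries, a ratio of levels of 1101 with an exact Poisson interval of 305 to 9090 for counting error only. In transplanted against resident cells 2 of 13 regulators and 2 of 10 targets tested were called, beside 13.0% of all genes, and the list medians were 0.02 and 0.08. Epas1 (2.26 ± 0.50, adjusted p = 0.014), Egln3 (0.95 ± 0.25, adjusted p = 0.0315), Car9 (2.04 ± 0.38, adjusted p = 0.00566) and Ero1l (0.51 ± 0.10, adjusted p = 0.009) were higher. Hif1a was not called (0.13 ± 0.09, adjusted p = 0.41). By TPM 1 regulator and 2 targets were higher, and 1 target, Bnip3l, was lower (-0.30, adjusted p = 0.0421).

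Among 11 further glycolysis enzymes tested, 3 were higher and 3 lower in culture (1 and 7 by TPM), beside 37.9% and 37.2% of all genes. Aldoc stood at 5.07 ± 0.40 and Eno4 at -4.20 ± 0.26. The testis form Gapdhs had 0 counts in culture, at least 21.1-fold lower against the same floor. Eno4 (0.66 ± 0.14) and Adpgk were higher and Eno3 (-0.56 ± 0.12) lower in transplanted than in resident cells. Of 4 enzymes that make or break down the activator of phosphofructokinase, Tigar was higher and Pfkfb2 and Pfkfb4 lower in culture, and Pfkfb4 (0.60 ± 0.07, adjusted p = 0.000477) and Tigar (0.57 ± 0.16, adjusted p = 0.0384) were higher in transplanted than in resident cells. Of 8 further pentose phosphate genes, 6 were higher and 1 lower in culture (1 and 4 by TPM), with Rpia at 2.90 ± 0.77 and Pgls at 2.16 ± 0.16. Rpia ranged from 1.19 to 8.18 CPM in cultured libraries, had 42 counts over the resident ones and was not tested by TPM. Prps2 was lower in transplanted cells (-0.45 ± 0.10, adjusted p = 0.0114). Of 6 genes of gluconeogenesis and glucose release, 3 were higher and 2 lower in culture (0 and 4 by TPM) and none was called by edgeR or TPM in transplanted cells. Of 3 further hexose transporters tested, 0 were higher and 2 lower in culture (0 and 3 by TPM). Slc2a8 was lower (-0.72 ± 0.22, adjusted p = 0.0151), at a mean TPM of 31.7 in cultured, 110.3 in resident and 121.4 in transplanted cells. The transporter Slc2a10 had 0 counts in cultured libraries, at least 47.2-fold lower than in resident ones. It was also lower in transplanted cells (-2.54 ± 0.54, adjusted p = 0.0116), with 33 counts against 197 over the resident libraries. Slc2a9 was higher in transplanted cells (0.58 ± 0.13, adjusted p = 0.0154).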

How the data were processed

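RNA was made into cDNA with a Smart-Seq protocol from 1 ng of total RNA, per the labels' protocols. HISAT, Bowtie2 and the build GRCm38.p6 were used, per the submitters' processing notes, while the counter, the annotation and whether counting used strand are not stated there. The deposited table gives an expected count per gene, estimated by the authors and not normalized, and a TPM per gene, which the authors scaled for length and library. Its 11 FPKM columns were not used. Symbols came from a RefSeq table, which matched 16845 of 16894 identifiers.

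Expected counts were rounded, and each pair of groups was fitted alone in edgeR 4.0.16 (R 4.3.3) with TMM scaling, edgeR's expression filter and the quasi-likelihood test. P-values were adjusted by Benjamini and Hochberg with a threshold of 0.05. Standard errors are the size of the fold change divided by the square root of its F statistic. CPM values use TMM over all 11 libraries. Log2(TPM + 1) was fitted with limma 3.58.1 for genes with a TPM over 1 in at least 3 libraries, and a fold change on this scale understates that of low genes. Alternatives were DESeq2 1.42.0 and its size factors, no filter, all libraries in 1 fit, a replicate block, removal of the trend with gene length, a pseudocount of 0.1, and leaving out each library. The fits were tested on simulated counts. No 2 libraries agreed within sampling noise.

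All 37 genes are named. Values in every library are given for genes called between transplanted and resident cells, for isozymes and for up to 3 of the largest changes of each step. Of the other lists, up to 3 called genes are named for culture and up to 2 for transplanted cells, with exceptions. Hif1a, Adpgk, Gys1, Pygb and Bnip3l in transplanted cells were added after their values were seen. So were Hif1a, Mlxipl, Vhl, Mlxip, Trp53, Hif1an and Slc2a8 in culture. The genes and lists were chosen with earlier results of these data known. Protein sequences were not analysed here. No molecular identifiers were used, and the intervals and floors hold counting error alone. A further microglia marker is not reported here and is not part of the marker sums.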

Additional observations from a re-analysis of the deposited data

Results flagged for a closer look

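In 74 groups of 4 libraries, 1 gene in resident or in transplanted cells each, 3 held a library whose gap to the nearest other library was larger than Dixon's 95% limit, where chance flags about 1 group in 20. Hk1 was at 35.36 CPM in transplanted replicate 2, against 23.9 to 25.34 CPM in the other transplanted libraries. Tkt was at 113.8 CPM in resident replicate 2, against 126.7 to 128.6 CPM in the others. Mdh1 was at 133.5 CPM in resident replicate 4, against 119 to 121.2 CPM in the others.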

How the results depend on the processing

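With DESeq2, its size factors in edgeR or no filter, the numbers of the 37 genes called in each direction equalled those given in all 3 comparisons. In cultured against resident cells the TPM fits (pseudocounts 1 and 0.1, and no filter) gave 10 lower genes and a median of 0.56, and removing the length trend gave a median of 2.02; leaving out a library gave medians of 1.60 to 1.83. They reversed Hk1 (-0.11, -0.12 and -0.11), G6pdx (-0.06 in each), Cs (-0.17), Idh2 (-0.89), Idh3a (-0.54, -0.56 and -0.54), Ogdh (-0.81, -0.82 and -0.81), Suclg1 (-0.05) and Mdh1 (-0.31). In transplanted against cultured cells TPM gave 18 lower genes in each fit, 8 higher with a filter, and medians of -0.47, -0.50 and -0.47; it reversed Cs (0.21), Idh2 (0.31), Idh3a (0.54, 0.56 and 0.54), Ogdh (0.91, 0.93 and 0.91) and Mdh1 (0.09). Removing the length trend gave 3 higher genes there and a median of -1.66, and reversed Hk2 (0.29 against resident, -0.06 in transplanted against cultured cells); leaving out a library gave medians of -1.69 to -1.45. TPM differs from TMM by its construction; the cause of the other moves was not tested. In transplanted against resident cells 1 fit of all 11 libraries left 2 higher and 2 lower genes, and leaving out a library left 2 to 4 of each. Same-numbered libraries correlated at -0.077 to 0.136 in their deviations, and other pairs of libraries at -0.143 to 0.186. No pairing by number showed, but so few libraries cannot exclude one. A replicate block gave 29 higher and 5 lower, 4 and 29, and 3 and 2 genes in the 3 comparisons. Counts of shares that did not overlap stayed at 13 to 14, 11 to 14 and 11 to 12 of 15 in the 3 comparisons, and step sums of cultured and resident cells stayed apart in 7 or 8 of 8 steps. Pfkp and Slc2a6 have few counts in resident libraries, where depth limits the precision of their fold changes.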
